A study of Danio rerio with 18 samples.

Results

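The osteoclast genes of the regenerating zebrafish caudal fin are described here in bulk RNA-seq libraries of fish with a knockout of s1, a regeneration-associated silencer, and of wild-type fish. The 8 genes listed as osteoclast genes were ctsk, acp5a, acp5b, tnfrsf11a, tcirg1b, dcstamp, ocstamp and calcr. Gene IDs were matched to symbols without regard to case, and an ID named by the symbol's stem without its a or b letter also counted. In this way 7 of the 8 genes were matched to 8 gene IDs of 32520 in the table, and all 8 IDs were among the 22779 that reached a signal of 10 in at least 3 libraries and were tested. No ID carried the name dcstamp, which is not analysed here.

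The knockout (KO) groups were s1 knockout fish derived from the outbred Ekkwill strain, whose allele and zygosity the labels do not give, and the wild-type (WT) groups were Ekkwill fish of the same families. The strain's fish were about 4 to 8 months old. Caudal fins were cut at the middle of their length, and tissue was taken at once (0 days post amputation, dpa), after 1 day or after 4 days. KO and WT at these times make 6 groups of 3 libraries, 18 in all, and every library is a separate pool of fin clips from 10 fish, so that the spread between libraries is between pools and not between single fish. Tissue taken at 0 dpa is mature fin, whereas the later samples hold wound and regrowing tissue. As a silencer, s1 is a regulatory sequence and not a gene, so gene counts do not check its loss.

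Osteoclasts are large cells with several nuclei that dissolve bone; they form by fusion of precursors of the macrophage lineage. The cytokine RANKL binds its receptor RANK on the precursor, the colony-stimulating factor receptor keeps the lineage alive, and the decoy receptor osteoprotegerin captures RANKL. A mature osteoclast seals itself to bone, pumps acid through a V-ATPase into the space beneath and releases cathepsin K and tartrate-resistant acid phosphatase. In the fish fin, such cells work on the bony rays. The listed genes encode RANK (tnfrsf11a), the calcitonin receptor (calcr), a fusion protein of the osteoclast membrane (ocstamp), a V-ATPase subunit (tcirg1), cathepsin K (ctsk) and 2 tartrate-resistant acid phosphatases (acp5a, acp5b). None of them marks osteoclasts alone in a whole-tissue sample, and cathepsin K is also made by fibroblasts in mammals.

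The values are the authors' normalised read counts, that is, each library's reads over its own size factor, and are called signal below. Libraries held 58.6 to 155 M reads assigned to genes, but the 5 most abundant genes took 2.71% to 90.5% of them, so that 10.5 to 75.5 M reads were left for all other genes. At 4 dpa this remainder was 16.4 to 19.7 M reads in KO libraries and 10.5 to 10.9 M reads in WT libraries. The share of the 5 genes was 2.71% to 57.9% in KO and 3.61% to 34.3% in WT libraries at 0 dpa. By 4 dpa it was 79.0% to 82.9% in KO and 87.5% to 90.5% in WT libraries, without overlap. The share thus goes with time. Where it is a covariate below, a change from 0 to 4 dpa rests on the share's slope within groups. Such values show dependence on the setting and are not corrected estimates. A floor of 3 reads corresponds to a signal of 1.17 to 7.47, depending on the library. Differences were tested with limma on log2(signal + 1), with Benjamini-Hochberg adjustment over all 22779 genes, and a gene is called where the adjusted p was under 0.05. Signals are not corrected for gene length, so levels are compared between libraries for one gene and not between genes.

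After amputation, ocstamp, acp5a and 1 of the TCIRG1 genes rose within 1 day in KO and WT fins alike, and ctsk was higher at 4 dpa than at 0 dpa in KO fins. The receptor gene tnfrsf11a was higher at 4 dpa than at 1 dpa in KO fins. With the deposited scaling and all 18 libraries, the second acid phosphatase gene acp5b, the second TCIRG1 gene and calcr were called in no comparison. No osteoclast gene was called between KO and WT at any time. In bulk samples, fewer cells of a type and less RNA per cell cannot be told apart.

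**Figure D1:**
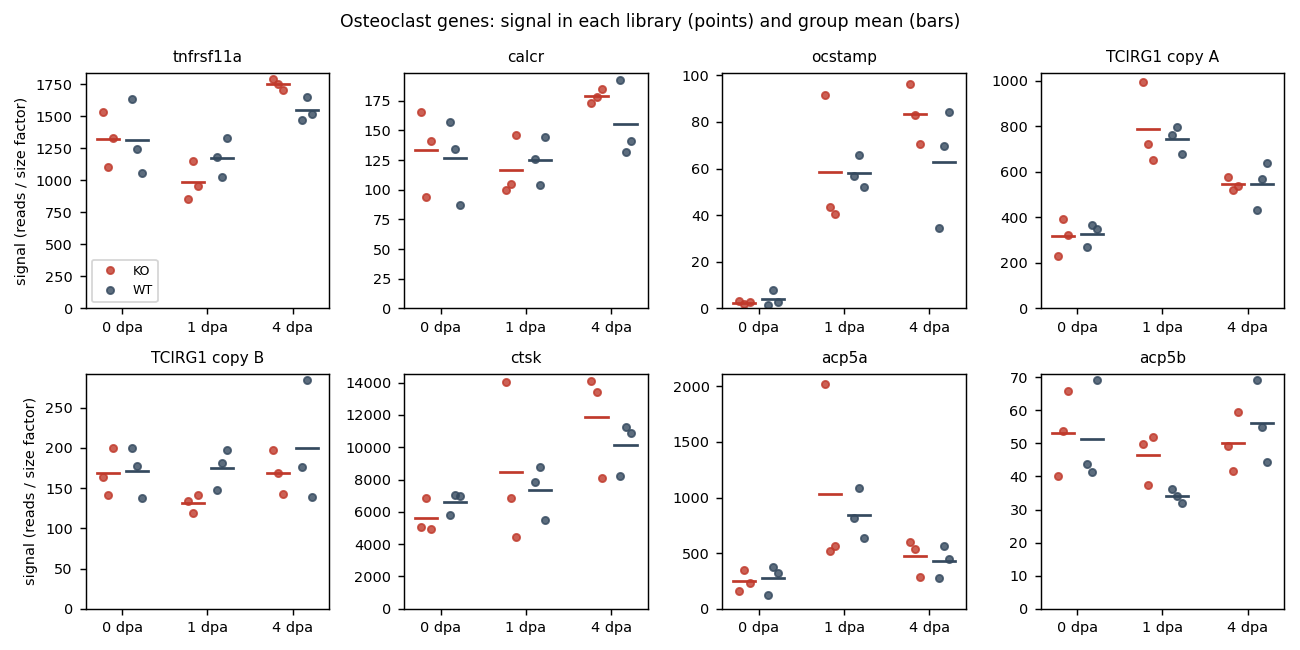
Signal (size-factor-normalised reads, vertical axes from 0) of the 8 osteoclast gene IDs at 0, 1 and 4 dpa, with KO libraries in red to the left of WT libraries in dark blue. Points are libraries and bars are group means of 3; ocstamp lies under 8 in every 0 dpa library and above 34 in all later ones.

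The fusion gene ocstamp (ENSDARG00000022139) had the largest changes among the osteoclast genes. KO fins had signals of 3.04, 1.92 and 2.63 at 0 dpa, of 91.3, 43.6 and 40.5 at 1 dpa and of 96.1, 83.1 and 70.3 at 4 dpa. WT fins had 1.56, 7.86 and 2.88 at 0 dpa, 56.6, 65.7 and 52.2 at 1 dpa and 34.6, 69.8 and 84.1 at 4 dpa. All 12 libraries of cut fins lay above all 6 libraries taken at 0 dpa, and the signals at 1 and 4 dpa overlapped in both genotypes. At 1 dpa against 0 dpa the gene rose by a log2 change of 3.99 (SE 0.45, limma adjusted p = 6.33e-06) in KO fins and of 3.73 (SE 0.45, limma adjusted p = 1.32e-05) in WT fins. The log2 change at 4 against 0 dpa was 4.58 in KO fins (limma adjusted p = 9.41e-07) and 3.75 in WT fins (limma adjusted p = 8.84e-06). The level at 0 dpa rests on 2 to 7 reads per KO library and 4 to 8 reads per WT library, at or near the floor, and the gene passed the filter on low values only through the libraries at 1 and 4 dpa. A gene that passes in this way had to differ between times, so its calls against 0 dpa are no independent evidence, and counts are also given without it.

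The subunit that TCIRG1 encodes belongs to the V-ATPase, the proton pump that acidifies the space under the osteoclast. TCIRG1 is carried as a name by 2 IDs, and which of them is tcirg1b was not settled, so both are described. Reads of near-identical copies can fall on either. Copy A (ENSDARG00000105142) had signals of 231, 394 and 324 at 0 dpa, 995, 723 and 651 at 1 dpa and 579, 519.5 and 538 at 4 dpa in KO fins. In WT fins copy A had 272, 366 and 350.1 at 0 dpa, 763, 797 and 678 at 1 dpa and 433, 568 and 638 at 4 dpa. All libraries at 1 dpa lay above all libraries at 4 dpa, which in turn lay above all libraries at 0 dpa, with no overlap between times. TCIRG1 copy A rose at 1 dpa against 0 dpa by a log2 change of 1.33 (SE 0.21, limma adjusted p = 0.000222) in KO fins and 1.19 (SE 0.21, limma adjusted p = 0.000543) in WT fins. It was still higher at 4 dpa than at 0 dpa, by 0.82 in KO fins (limma adjusted p = 0.00508) and 0.72 in WT fins (limma adjusted p = 0.00932). The step from 1 to 4 dpa, with a log2 change of -0.51 in KO fins and -0.46 in WT fins, missed the threshold (limma adjusted p = 0.0873 and 0.155). The WT step was called without the 4 libraries in which the 5 abundant genes took under 20% of reads (adjusted p = 0.0337). Those libraries were replicate 2 of KO and replicates 2 and 3 of WT at 0 dpa, and replicate 1 of KO at 1 dpa. Leaving them out keeps only replicate 1 of WT at 0 dpa, so WT changes against 0 dpa then have no spread at 0 dpa.

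TCIRG1 copy B (ENSDARG00000016835) behaved otherwise. Its signals were 163, 141 and 199 at 0 dpa, 134, 119.5 and 142 at 1 dpa and 197, 169 and 142 at 4 dpa in KO fins. In WT fins they were 199, 178 and 138 at 0 dpa, 147, 181 and 197 at 1 dpa and 176, 284 and 139 at 4 dpa. Its log2 changes between times ran from -0.34 to 0.35 and none was called. The groups overlapped in all of these comparisons except that of KO fins at 4 against 1 dpa, where the lowest library at 4 dpa (142.04) and the highest at 1 dpa (141.86) almost touched.

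Cathepsin K, the protease that cuts collagen in bone, is encoded by ctsk (ENSDARG00000040251). Its signals in KO fins were 5057, 6881 and 4944 at 0 dpa, 14019, 6856 and 4459.55 at 1 dpa and 14079.8, 13444 and 8066 at 4 dpa. WT fins had 5782, 7042 and 6991 at 0 dpa, 7855, 8773 and 5501 at 1 dpa and 8207, 11274 and 10883 at 4 dpa. At 4 dpa every library of both genotypes lay above every library of 0 dpa, while the libraries of 1 dpa overlapped those of both other times. In KO fins ctsk rose at 4 dpa against 0 dpa by a log2 change of 1.05 (SE 0.34, limma adjusted p = 0.0164). The WT change of 0.61 (SE 0.34) was not called (limma adjusted p = 0.133), and the difference between the genotypes' changes, 0.44 with a 95% interval of -0.56 to 1.45, was not called either. The WT change was called where only the groups compared were fitted (0.61, adjusted p = 0.0495), with libraries scaled by their total outside the 5 abundant genes (1.37, adjusted p = 0.00251) and with the share of those genes as a covariate (1.83, adjusted p = 0.0011), so a rise in KO fins alone is not shown. The call in KO fins was lost without replicate 3 of KO at 0 dpa (log2 0.96, limma adjusted p = 0.0541), without replicate 1 of KO at 4 dpa (0.90, adjusted p = 0.0666) and without replicate 2 of KO at 4 dpa (0.94, adjusted p = 0.0616). At 1 dpa, replicate 1 of the KO fins stood far above the other KO libraries in ctsk, and without it ctsk was called higher at 4 than at 1 dpa in KO fins (log2 1.06, limma adjusted p = 0.0200), against 0.61 with it (adjusted p = 0.189). With all libraries kept, that change was also called with the total as scale (1.06, adjusted p = 0.0325) and with the covariate (1.06, adjusted p = 0.00224). At 1 against 0 dpa ctsk was called higher with the covariate in KO (0.80) and WT fins (1.02). With the total as scale it was called in WT fins (0.95).

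Tartrate-resistant acid phosphatase, the enzyme whose stain shows osteoclasts in tissue, has separate genes acp5a and acp5b. The ID named ACP5 without a letter (ENSDARG00000019763) is taken as acp5a, since acp5b has an ID of its own. Signals of acp5a in KO fins were 157, 350.2 and 235 at 0 dpa, 2021, 516 and 561 at 1 dpa and 599, 538 and 289 at 4 dpa. WT fins had 127, 374 and 326 at 0 dpa, 819, 1083 and 637 at 1 dpa and 277, 568 and 445 at 4 dpa. Every library at 1 dpa lay above every library of the same genotype at 0 dpa, and the 4 dpa libraries overlapped those of 0 dpa. At 1 dpa against 0 dpa acp5a rose by a log2 change of 1.83 (SE 0.51, limma adjusted p = 0.0124) in KO fins and 1.72 (SE 0.51, limma adjusted p = 0.0139) in WT fins. Its change at 4 against 0 dpa, 0.95 in KO fins and 0.72 in WT fins, was not called. With the share of the 5 abundant genes as covariate it was called in both genotypes (2.37 in KO and 2.86 in WT fins). The same held with the total outside those genes as scale (1.86 in KO and 1.49 in WT fins). Without the 4 libraries in which those genes took under 20% of reads, the KO change was 1.24 and was called. The WT change was then 1.69, but it rests on replicate 1 alone at 0 dpa, the lowest WT library of that time for acp5a. In WT fins every library at 4 dpa lay below every library at 1 dpa (log2 change -1.002, limma adjusted p = 0.194), a fall that was called without those 4 libraries (adjusted p = 0.0151) and where only the groups compared were fitted (adjusted p = 0.0141).

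The size of the acp5a rise in KO fins rests in part on replicate 1 of KO at 1 dpa, without which the log2 change was 1.19 and the call was lost (limma adjusted p = 0.0568). That library, in which the 5 abundant genes took 10.9% of the reads against 72.0% and 76.9% in the other KO libraries at 1 dpa, was also the highest of its group for ctsk, ocstamp and TCIRG1 copy A. The part of this share in these values was tested only as an added term of the fit and by leaving such libraries out. The acp5a call in WT fins was lost without replicate 1 of WT at 0 dpa (log2 1.24, limma adjusted p = 0.0563) and without replicate 2 of WT at 1 dpa (1.53, adjusted p = 0.0524). The call in KO fins was also lost where only the groups compared were fitted (1.83, adjusted p = 0.0645).

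Compared with acp5a, acp5b (ENSDARG00000101456) stayed within a narrow range. Its signals were 40.0, 53.9 and 65.8 at 0 dpa, 49.9, 37.5 and 51.8 at 1 dpa and 49.2, 41.6 and 59.5 at 4 dpa in KO fins. In WT fins acp5b had 43.8, 41.3 and 69.2 at 0 dpa, 36.3, 34.2 and 31.9 at 1 dpa and 69.3, 54.8 and 44.5 at 4 dpa. The WT libraries at 1 dpa lay below all WT libraries of the other times, but no change was called. The largest of them, WT at 4 against 1 dpa, was a log2 change of 0.68 (SE 0.27, limma adjusted p = 0.104). With libraries scaled by their total outside the 5 abundant genes, acp5b was called higher at 4 against 0 dpa. The change was then 0.82 in KO fins (limma adjusted p = 0.0490) and 0.89 in WT fins (limma adjusted p = 0.0349). The WT signals at 4 dpa rest on 18 to 28 reads per library.

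RANK, the receptor through which RANKL acts on osteoclast precursors, is encoded by tnfrsf11a (ENSDARG00000087804). KO fins had signals of 1532, 1100.5 and 1329 at 0 dpa, 854, 1149.7 and 955 at 1 dpa and 1789, 1749.6 and 1709 at 4 dpa. WT fins had 1635, 1241 and 1059.8 at 0 dpa, 1179, 1024 and 1331 at 1 dpa and 1469, 1654 and 1516 at 4 dpa. In both genotypes all libraries at 4 dpa lay above all libraries at 1 dpa, and in KO fins above those at 0 dpa as well. The gene tnfrsf11a was higher at 4 than at 1 dpa in KO fins by a log2 change of 0.84 (SE 0.18, limma adjusted p = 0.00308), a call that held under every alternative run. In WT fins the change was 0.40 (SE 0.18, limma adjusted p = 0.142), and the difference between the 2 changes, 0.44 with a 95% interval of -0.10 to 0.97, was not called. Changes against 0 dpa were -0.42 at 1 dpa and 0.42 at 4 dpa in KO fins, with limma adjusted p of 0.0894 and 0.0627. At 1 dpa against 0 dpa it was called lower with the share of the 5 abundant genes as covariate, by -0.59 in KO fins (adjusted p = 0.00157) and -0.56 in WT fins (adjusted p = 0.0222). In KO fins it was also called lower without the 4 libraries of low share (-0.45, adjusted p = 0.0268) and without replicate 2 of KO at 0 dpa (-0.54, adjusted p = 0.0444). The KO rise at 4 against 0 dpa was called with TMM scaling (0.46, adjusted p = 0.0489) and with the total outside the 5 abundant genes as scale (1.33, adjusted p = 0.00915). It was also called without replicate 1 of KO (0.53, adjusted p = 0.0323) or of WT (0.42, adjusted p = 0.0354) at 0 dpa. The WT rise was called with that total as scale (1.02, adjusted p = 0.0346) and without replicate 1 of WT at 0 dpa (0.43, adjusted p = 0.0452).

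The calcitonin receptor, through which the hormone calcitonin restrains osteoclasts in mammals, is encoded by calcr (ENSDARG00000028845). The signals of KO fins were 165, 94.3 and 142 at 0 dpa, 99.9, 105 and 146 at 1 dpa and 173, 178 and 185 at 4 dpa. WT fins had 157, 135 and 87.2 at 0 dpa, 126, 104 and 145 at 1 dpa and 193, 132 and 141 at 4 dpa. In KO fins the 4 dpa libraries lay above those of both earlier times, and in WT fins the times overlapped. The largest change, KO at 4 against 1 dpa, was a log2 change of 0.63 (SE 0.26) and was not called (limma adjusted p = 0.0820). It was called without replicate 3 of KO at 1 dpa (0.80, limma adjusted p = 0.0494). With libraries scaled by their total outside the 5 abundant genes, calcr was called higher at 4 against 0 dpa. The change was then 1.36 in KO fins (limma adjusted p = 0.0168) and 1.08 in WT fins (limma adjusted p = 0.0494).

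At 1 dpa against 0 dpa 3 of 8 were called higher in KO fins, where 15.4% of all tested genes were called higher and 13.9% lower. In WT fins 3 of 8 were called higher, the same 3 as in KO fins (ocstamp, TCIRG1 copy A and acp5a), against 19.1% of all tested genes higher and 21.1% lower. Without ocstamp these counts were 2 of 7 in each genotype. Between 0 and 4 dpa 3 of 8 were called higher in KO fins at 4 dpa (ocstamp, TCIRG1 copy A and ctsk), beside 23.3% of all genes higher and 25.7% lower. In WT fins 2 of 8 were called higher (ocstamp and TCIRG1 copy A), beside 25.9% higher and 29.6% lower, and without ocstamp these counts were 2 of 7 in KO fins and 1 of 7 in WT fins. From 1 to 4 dpa 1 of 8 was called higher in KO fins (tnfrsf11a), where 11.6% of all genes were called higher and 16.2% lower, and 0 of 8 in WT fins, where 7.17% were called higher and 6.61% lower. Of the WT changes from 1 to 4 dpa, 3 of 8 had an unadjusted p under 0.05, beside 6947 of the 22779 tested genes. For these changes edgeR and DESeq2 called 0 of 8 as well. No osteoclast gene was called lower in these comparisons, although tnfrsf11a, acp5a and TCIRG1 copy A were in some alternatives, as given above. The median log2 change of the 8 was 0.13 in KO and 0.09 in WT fins at 1 dpa against 0 dpa and 0.64 in KO and 0.46 in WT fins at 4 dpa against 0 dpa, while the median of all genes lay between -0.03 and -0.02.

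**Figure D2:**
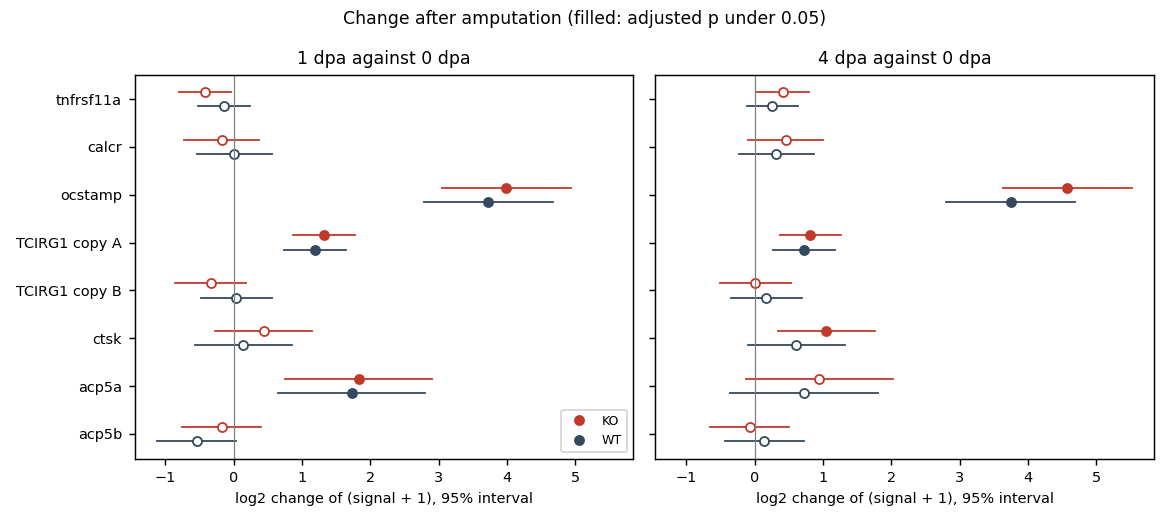
Log2 change of (signal + 1) at 1 dpa (left) and 4 dpa (right) against 0 dpa for the 8 osteoclast gene IDs, KO in red above WT in dark blue, with 95% intervals from limma; filled points had an adjusted p under 0.05. The KO and WT intervals overlap for every gene, and ocstamp, with log2 changes of 3.73 to 4.58, stands to the right of the rest.

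Scaling matters for the genes that were not called. When libraries were scaled by their total outside the 5 abundant genes, the median of all genes moved up by 0.89 (log2) in KO and 0.75 in WT fins at 4 against 0 dpa. Under that scaling 80.5% of calls in KO fins and 72.7% in WT fins were higher at 4 dpa, against 47.5% and 46.7% with the deposited scaling, and 7 of 8 osteoclast genes were called higher in each genotype. The changes above are therefore relative to the median gene. These percentages are of called genes. The share of all tested genes called higher under that scaling is not given here, so 7 of 8 is not read against all genes. List counts given below under that scaling, or with the share of the 5 abundant genes as covariate, have the same limit.

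The study set KO against WT to find genes that differ without the silencer. At 0 dpa the log2 differences of the osteoclast genes, KO over WT, lay between -0.35 (ocstamp) and 0.08 (calcr), and 0 of 8 were called, where 0.101% of all tested genes were. At 1 dpa they lay between -0.40 (TCIRG1 copy B) and 0.42 (acp5b), with 0 of 8 called beside 0.00439% of all genes. At 4 dpa they lay between -0.18 (TCIRG1 copy B) and 0.48 (ocstamp), with 0 of 8 called beside 0.0351% of all genes. Averaged over the times they lay between -0.20 and 0.11, with 0 of 8 called beside 0.14% of all genes. In none of these 4 comparisons did an osteoclast gene have an unadjusted p under 0.05, and edgeR and DESeq2 called 0 of 8 in each.

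For the average over times, the 95% interval of the log2 difference was -0.24 to 0.20 for tnfrsf11a, -0.26 to 0.26 for TCIRG1 copy A, -0.25 to 0.39 for calcr and -0.40 to 0.42 for ctsk. It was wider for ocstamp, at -0.53 to 0.56, and for acp5a, at -0.60 to 0.64. At a single time the widest intervals were those of acp5a, such as -1.17 to 0.99 at 0 dpa. The signals of the KO and WT libraries overlapped in 21 of 24 comparisons of a gene at a time. The exceptions were acp5b at 1 dpa (37.5 to 51.8 in KO, 31.9 to 36.3 in WT), TCIRG1 copy B at 1 dpa (119.5 to 142 in KO, 147 to 197 in WT) and tnfrsf11a at 4 dpa (1709 to 1789 in KO, 1469 to 1654 in WT). None of these was called. The share of all tested genes without such overlap was not counted, so the exceptions are not read as genotype differences. The change with time differed between genotypes for 0 of 8 genes in each of the 3 tests of that difference (1 against 0, 4 against 0 and 4 against 1 dpa), in which 0% of all genes were called. At an unadjusted p under 0.05 these 3 tests held 950, 888 and 596 of all genes and 0 of the 8.

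**Figure D3:**
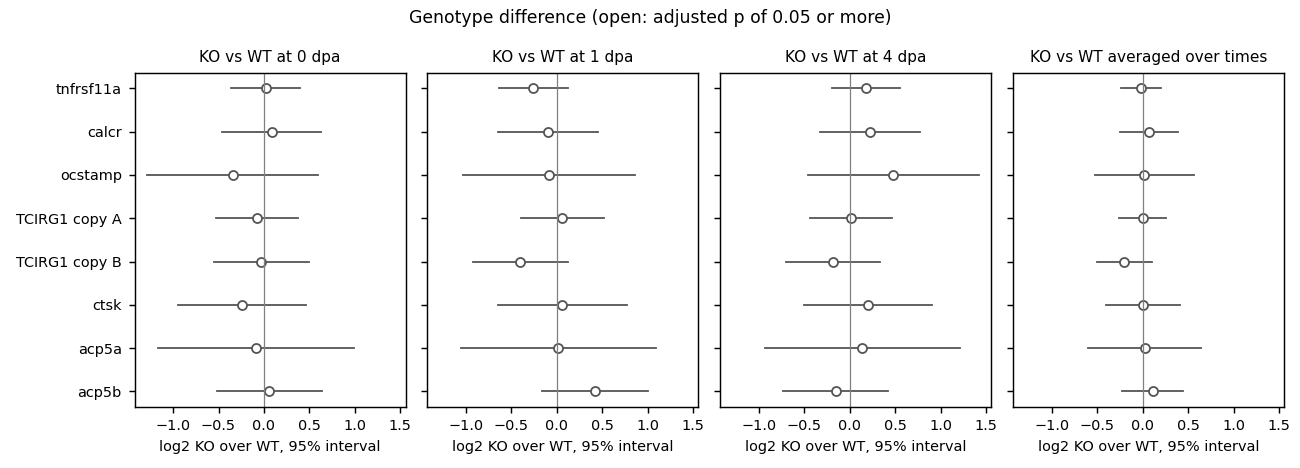
Log2 difference of (signal + 1), KO over WT, with 95% intervals from limma for the 8 osteoclast gene IDs at 0, 1 and 4 dpa and averaged over the times. All points are open, meaning that no adjusted p was under 0.05, and every interval includes 0.

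In order of group means, the highest group was KO at 4 dpa for ctsk (11864), tnfrsf11a (1749), ocstamp (83.2) and calcr (179), with WT at 4 dpa next in each case (10121, 1547, 62.8 and 155). These neighbours overlapped for ctsk, ocstamp and calcr. For acp5a and TCIRG1 copy A the highest groups were KO at 1 dpa (1033 and 789.5) and WT at 1 dpa (846 and 746), which overlapped each other and lay above both groups at 4 dpa in their means. The lowest groups were those at 0 dpa for ctsk, acp5a, TCIRG1 copy A and ocstamp, and KO and WT overlapped at that time for all 4 genes. For tnfrsf11a and calcr the lowest means were those at 1 dpa.

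Across the 18 libraries, which share their groups, depth and scaling, the genes fell along different courses. Pearson's r of log2(signal + 1) was 0.91 between acp5a and TCIRG1 copy A, 0.86 between TCIRG1 copy A and ocstamp and 0.72 between acp5a and ocstamp. It was 0.77 between tnfrsf11a and calcr, and -0.52 between tnfrsf11a and acp5a. Between ctsk and acp5a r was 0.55 over all libraries and 0.85 for the deviations from the group means, to which the high library of KO fins at 1 dpa contributes. These values describe the 18 libraries and were not tested.

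Among 15725 tested genes with a mean signal of at least 20 and a descriptive symbol, the nearest patterns by Pearson's r over the 18 libraries were looked up for each osteoclast gene. For ocstamp they were cdca3 (0.98), PCOLCE2 (0.98) and TOP2A (0.98), of which TOP2A encodes a topoisomerase of dividing cells. For TCIRG1 copy A they were tuba1b (0.98), traip (0.97) and DDOST (0.97), and for acp5a tuba1c (0.94), CTSD (0.94), which encodes the lysosomal protease cathepsin D, and AP2M1 (0.94). For ctsk they were BAMBI (0.92), tmem119b (0.91) and rrbp1b (0.89). For tnfrsf11a they were pleca (0.96), the type IV collagen gene COL4A1 (0.95) and FGFR2 (0.95), and for calcr SLC4A11 (0.89), LRRK1 (0.87) and KLF5 (0.86). The nearest genes were less near for acp5b (EPHA6, 0.72) and TCIRG1 copy B (prlrb, 0.75).

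Further genes of the osteoclast pathway were taken from lists of signals and receptors, of adaptors and transcription factors, and of acid secretion, attachment and matrix breakdown. No gene of these lists was called between KO and WT at any time. Of 13 tested signals and receptors, 2 rose and 2 fell at 1 dpa against 0 dpa in KO fins, and 2 rose and 7 fell in WT fins. By 4 dpa against 0 dpa 5 had risen and 5 had fallen in KO fins, and 3 had risen and 4 had fallen in WT fins. The median log2 change of the list was -0.38 in KO and -0.74 in WT fins at 1 dpa and -0.31 in KO and -0.28 in WT fins at 4 dpa. For comparison, 15.4% of all genes rose and 13.9% fell in KO fins and 19.1% rose and 21.1% fell in WT fins at 1 dpa, and 23.3% rose and 25.7% fell in KO fins and 25.9% rose and 29.6% fell in WT fins at 4 dpa. The list's counts depend on the setting: with the total outside the 5 abundant genes as scale, 3 fell in WT fins at 1 dpa, and with the share of those genes as covariate, 2 fell in KO fins and 0 in WT fins at 4 dpa. Among the called falls at 4 against 0 dpa were siglec15l and tnfb. The log2 change of siglec15l was -3.04 in KO and -2.91 in WT fins (limma adjusted p = 0.00295 and 0.00333). Its means at 4 dpa, 2.51 and 3.31, lay below the signal of 3 reads. For tnfb the change was -1.96 in KO and -2.92 in WT fins (limma adjusted p = 0.0241 and 0.00177). Neither WT fall was called with that covariate. Another 3 IDs of the list were listed at 0 in all libraries, among them those of the osteoclast adaptors tyrobp and fcer1g.

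Osteoprotegerin, the decoy receptor that keeps RANKL from RANK, is encoded by tnfrsf11b. In KO fins its signals were 430.5, 1537 and 806 at 0 dpa, 452, 276 and 312 at 1 dpa and 89.4, 68.8 and 56.8 at 4 dpa. In WT fins tnfrsf11b had 275, 1277 and 1332 at 0 dpa, 314, 257 and 189.8 at 1 dpa and 69.3, 84.7 and 64.3 at 4 dpa. All libraries at 4 dpa lay below all earlier ones, with a log2 change against 0 dpa of -3.51 in KO fins (SE 0.50, limma adjusted p = 4.83e-05) and -3.41 in WT fins (SE 0.50, limma adjusted p = 6.13e-05). With the share of the 5 abundant genes as covariate, the WT change at 4 dpa was -1.56 and not called (adjusted p = 0.0592), while the KO call held under every alternative run. The 0 dpa libraries varied widely, and the call at 1 dpa in WT fins (log2 -1.64, adjusted p = 0.0174) was lost in 6 alternatives. Among them were leaving out replicate 2 of WT at 0 dpa (-1.28, adjusted p = 0.0942) or replicate 3 of WT at 0 dpa (-1.25, adjusted p = 0.0960). Without the 4 libraries in which the abundant genes took under 20% of reads the WT change was -0.15, with only replicate 1 left at 0 dpa.

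RANKL, the ligand of the tnfrsf11a product, is encoded by tnfsf11. In KO fins tnfsf11 had 195, 117 and 147 at 0 dpa, 133, 132 and 98.0 at 1 dpa and 244, 259.8 and 203 at 4 dpa. WT fins had 268, 182 and 189 at 0 dpa, 102, 118 and 104 at 1 dpa and 183, 227 and 252 at 4 dpa. In both genotypes every library at 4 dpa lay above every library at 1 dpa. From 1 to 4 dpa tnfsf11 rose by a log2 change of 0.96 in KO fins (SE 0.22, limma adjusted p = 0.00522) and 1.02 in WT fins (SE 0.22, limma adjusted p = 0.00586). At 1 dpa against 0 dpa it fell in WT fins by 0.96 on the log2 scale (limma adjusted p = 0.00337), which came to -0.15 with libraries scaled by their total outside the abundant genes (adjusted p = 0.768), and in KO fins the change of -0.32 was not called. With the same scaling the WT rise from 1 to 4 dpa was 0.98 and lost its call (adjusted p = 0.149), while the KO rise held under every alternative run.

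The receptor of the colony-stimulating factors, on which macrophages and osteoclast precursors depend, has a gene csf1ra that also serves pigment cells of the fish skin. KO fins had signals of 636, 241 and 522 at 0 dpa, 702, 1596 and 1356 at 1 dpa and 2655, 2111 and 2287 at 4 dpa. WT fins had 566, 243 and 286 at 0 dpa, 1305, 1359 and 1652 at 1 dpa and 1892, 2374 and 2308 at 4 dpa. In both genotypes the times did not overlap, with the highest signals at 4 dpa. Against 0 dpa, csf1ra rose at 4 dpa by a log2 change of 2.44 in KO fins (SE 0.36, limma adjusted p = 6.14e-05) and 2.68 in WT fins (SE 0.36, limma adjusted p = 2.76e-05). One of the receptor's ligands, csf1a, had means of 993 at 0 dpa, 641 at 1 dpa and 514.5 at 4 dpa in KO fins and of 1009, 652 and 597 in WT fins. It was called lower at both times in both genotypes, but with libraries scaled by their total outside the abundant genes the WT changes turned to 0.18 at 1 dpa and 0.00493 at 4 dpa, neither called. The gene for sclerostin, SOST, a protein of bone cells that restrains bone formation, fell at 1 dpa against 0 dpa by 1.61 on the log2 scale in KO fins (limma adjusted p = 0.000472) and by 1.75 in WT fins. From 1 to 4 dpa SOST rose again, by 1.24 in KO fins (limma adjusted p = 0.00492) and 1.09 in WT fins (limma adjusted p = 0.0172).

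**Figure D4:**
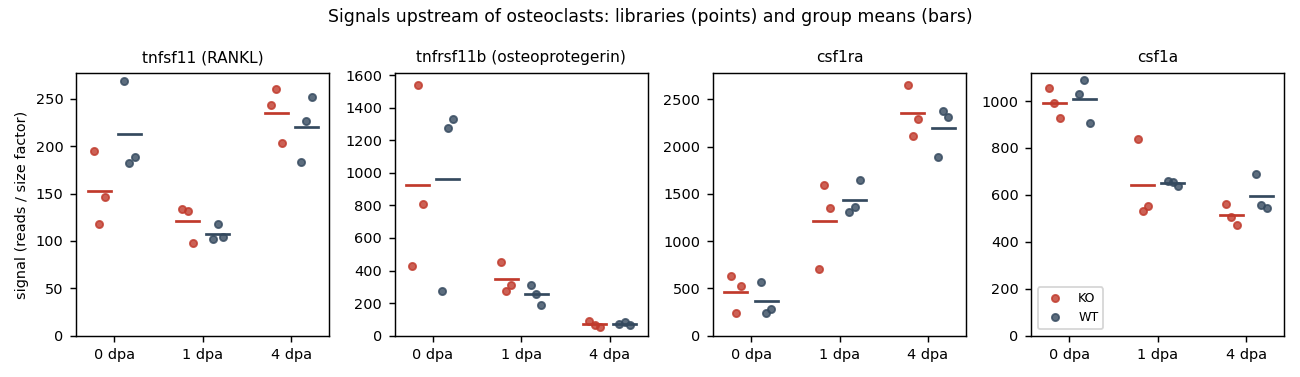
Signal (size-factor-normalised reads, vertical axes from 0) of the RANKL gene tnfsf11, the osteoprotegerin gene tnfrsf11b, the receptor gene csf1ra and the ligand gene csf1a, with KO libraries in red to the left of WT libraries in dark blue and bars at the means of 3. At 4 dpa tnfrsf11b lies between 56.8 and 89.4 in all 6 libraries, and csf1ra between 1892 and 2655.

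Of 27 tested adaptors and transcription factors, 11 rose and 3 fell at 1 dpa against 0 dpa in KO fins, and 13 rose and 5 fell in WT fins. The counts at 4 against 0 dpa were 8 up and 7 down in KO fins and 10 up and 5 down in WT fins. Among all genes at 1 dpa, 15.4% rose and 13.9% fell in KO fins and 19.1% rose and 21.1% fell in WT fins. At 4 dpa 23.3% rose and 25.7% fell in KO fins and 25.9% rose and 29.6% fell in WT fins. The median log2 change of the list was 0.29 in KO and 0.57 in WT fins at 1 dpa and 0.18 in KO and 0.21 in WT fins at 4 dpa. With the total outside the 5 abundant genes as scale, 15 rose and 1 fell in KO fins at 4 dpa, and with the share as covariate 6 rose and 3 fell in WT fins. PRDM1, whose product represses inhibitors of osteoclast formation in mice, had means of 141 at 0 dpa, 420.4 at 1 dpa and 1245 at 4 dpa in KO fins and of 142, 492 and 1192 in WT fins. Its log2 change at 4 against 0 dpa was 3.14 in KO fins (SE 0.15, limma adjusted p = 7.79e-10) and 3.06 in WT fins (SE 0.15, limma adjusted p = 1.60e-09). SPI1, which encodes the myeloid factor PU.1, rose at 1 dpa against 0 dpa by 2.16 in KO fins (limma adjusted p = 8.73e-05) and 1.68 in WT fins (limma adjusted p = 0.000722). The AP-1 gene FOSL1 fell by 3.81 on the log2 scale in KO fins (limma adjusted p = 5.70e-06) and by 3.48 in WT fins (limma adjusted p = 1.67e-05) at 4 against 0 dpa. NFATC1, which encodes the factor that commits precursors to osteoclasts, was called higher in WT fins at 1 dpa (log2 0.98) and at 4 dpa (1.09) and was not called in KO fins. Both WT calls were lost with the share as covariate (0.49, adjusted p = 0.237, and 0.41, adjusted p = 0.456). Without the 4 libraries of low share the WT changes were 0.44 and 0.54, with only replicate 1 of WT left at 0 dpa. The difference between the genotypes' changes was not called.

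Of 29 tested genes of acid secretion, attachment and matrix breakdown, 13 rose and 1 fell at 1 dpa against 0 dpa in KO fins, and 13 rose and 3 fell in WT fins. The counts at 4 against 0 dpa were 13 up and 2 down in KO fins and 15 up and 4 down in WT fins. The median log2 change was 0.48 in KO and 0.60 in WT fins at 1 dpa and 0.57 in KO and 0.46 in WT fins at 4 dpa. Among all genes, 15.4% were called up and 13.9% down in KO fins and 19.1% up and 21.1% down in WT fins at 1 dpa. The shares at 4 dpa were 23.3% up and 25.7% down in KO fins and 25.9% up and 29.6% down in WT fins. With the total outside the 5 abundant genes as scale, 23 rose and 0 fell in KO fins and 21 rose in WT fins at 4 dpa, and with the share as covariate 11 rose and 0 fell in WT fins. The collagenase gene mmp13a had means of 12.1 at 0 dpa, 459.7 at 1 dpa and 80.4 at 4 dpa in KO fins and of 9.14, 249.7 and 76.0 in WT fins. It rose at 1 dpa against 0 dpa by a log2 change of 5.50 in KO fins (SE 0.56, limma adjusted p = 2.48e-06) and 4.48 in WT fins (SE 0.56, limma adjusted p = 2.04e-05). The integrin gene ITGB3 (ENSDARG00000045070), whose product anchors osteoclasts to bone, rose at 1 dpa against 0 dpa by 1.97 in KO fins (limma adjusted p = 4.53e-05) and 2.35 in WT fins (limma adjusted p = 8.14e-06). The membrane protease gene MMP14 (ENSDARG00000008388) rose at 4 dpa against 0 dpa by 2.93 in KO fins (limma adjusted p = 1.40e-08) and 2.43 in WT fins (limma adjusted p = 1.23e-07). MMP9, a gelatinase gene also active in neutrophils, had means of 3762 at 0 dpa, 13859.5 at 1 dpa and 4539 at 4 dpa in KO fins and of 3389.9, 10168 and 4652 in WT fins. SNX10 went the other way in WT fins, with means of 1832 at 0 dpa and 285 at 1 dpa. Its log2 change was -1.93 (SE 0.64, limma adjusted p = 0.0261). With the total outside the 5 abundant genes as scale, 0 genes of the list were called lower in that comparison. ITGB3 and MMP14 are each also the name of another ID, which is not described here. Proteases and integrins of this list are also made by other cells of a healing fin. The carbonic anhydrase gene ca2 was listed at 0 in all libraries.

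Markers of the cells around osteoclasts moved with time as well, and their part in the values of the osteoclast genes was not tested. Of 17 tested macrophage markers (24 IDs, 3 of them listed at 0 throughout), 2 rose and 4 fell at 1 dpa against 0 dpa in KO fins and 3 rose and 4 fell in WT fins, with csf1ra counted here too. Among all genes 15.4% rose and 13.9% fell in KO fins and 19.1% rose and 21.1% fell in WT fins at 1 dpa. Between 0 and 4 dpa the counts were 3 up and 6 down in KO fins and 3 up and 8 down in WT fins, beside 23.3% up and 25.7% down in KO and 25.9% up and 29.6% down in WT fins among all genes. These falls depend on the setting: with the share of the 5 abundant genes as covariate 3 fell in KO fins and 2 in WT fins, and with the total outside those genes as scale 6 rose in each genotype. The summed signal of the list was 149584 to 280035 at 0 dpa, 28784 to 60845 at 1 dpa and 24030.2 to 32961 at 4 dpa in KO fins, and 135036 to 299610 at 0 dpa, 32522 to 40005 at 1 dpa and 34130.1 to 46391 at 4 dpa in WT fins. Most of that sum was cd74a, a gene of antigen presentation, with means of 178159 in KO and 176135 in WT fins at 0 dpa. The macrophage gene MPEG1 (ENSDARG00000055290) had means of 1158 at 0 dpa, 1314 at 1 dpa and 1464 at 4 dpa in KO fins and of 1275, 1472 and 1577 in WT fins, with no call. MPEG1 is also the name of other IDs, which are not described here.

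Neutrophil markers rose at 1 dpa against 0 dpa, with 7 of 9 called higher and 0 lower in KO fins. In WT fins 7 were called higher and 1 lower. At 1 dpa 15.4% of all genes were called higher and 13.9% lower in KO fins, and 19.1% higher and 21.1% lower in WT fins. The genes mmp13a and MMP9 stand in this list and in that of matrix breakdown. The summed signal of the neutrophil markers was 4132 to 4824 at 0 dpa, 14691 to 17609 at 1 dpa and 5368 to 5944 at 4 dpa in KO fins, and 4048 to 4396 at 0 dpa, 10129 to 14314 at 1 dpa and 5293 to 6007 at 4 dpa in WT fins. Most of that sum was MMP9, with means of 3762 at 0 dpa and 13859.5 at 1 dpa in KO fins and 10168 at 1 dpa in WT fins. The sum therefore mainly follows MMP9, which other cells of a healing fin also make. The neutrophil lysozyme gene lyz went the other way and was the marker called lower in WT fins at 1 dpa (log2 -2.44, limma adjusted p = 0.0153). It had means of 45.4 in KO and 65.4 in WT fins at 0 dpa. At 4 dpa lyz was at 0 in all KO libraries and had a mean of 4.13 in WT libraries. That mean is below the signal of 3 reads there (7.42 to 7.47), and 0 neutrophil markers were called between KO and WT at 4 dpa. Of 12 tested osteoblast and bone markers, 1 rose and 8 fell at 1 dpa against 0 dpa in each genotype. These falls depend on the setting: 4 fell in KO fins where only the groups compared were fitted. In WT fins 4 fell with the total outside the 5 abundant genes as scale. At 4 dpa against 0 dpa 23.3% of all genes rose and 25.7% fell in KO fins, and 25.9% rose and 29.6% fell in WT fins. Of the bone markers, 9 had risen and 0 had fallen in KO fins by then, and 7 had risen and 1 had fallen in WT fins. Their summed signal was 110785 to 168254 at 0 dpa, 60086 to 79950 at 1 dpa and 218050 to 238337 at 4 dpa in KO fins, and 136940 to 190133, 72640 to 77914 and 187852 to 217820 in WT fins, with bglap, ALPL and 1 COL10A1 ID listed at 0 throughout.

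The tissue label was checked on 13 tested fin and epidermis markers. The keratin gene krt4 had means of 63363 in KO and 71001 in WT fins at 0 dpa, and the fin-fold gene and1 had means of 201770 in KO and 221540 in WT fins at 4 dpa. Of the same list, 6 rose and 3 fell at 4 dpa against 0 dpa in KO fins and 2 rose and 4 fell in WT fins. Among all genes 23.3% rose and 25.7% fell in KO fins and 25.9% rose and 29.6% fell in WT fins. Of the list's IDs, hoxa13a and hoxa13b were listed at 0 throughout. IDs at 0 in every library include genes that fin tissue is known to use, so that a listed 0 is not read as absence.

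**Figure D5:**
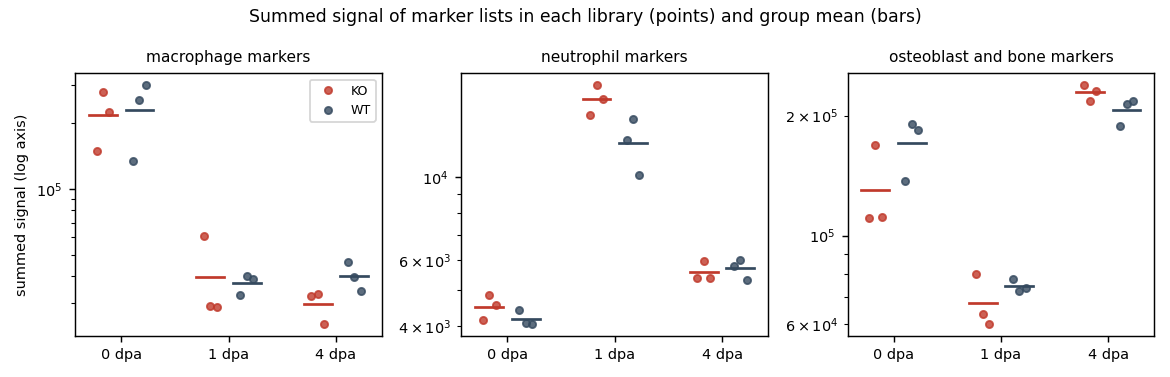
Summed signal (log axis) of the macrophage, neutrophil and osteoblast marker lists in each library at 0, 1 and 4 dpa, with KO libraries in red to the left of WT libraries in dark blue and bars at the means of 3. The macrophage sum is highest at 0 dpa, the neutrophil sum at 1 dpa (10129 to 17609) and the osteoblast sum at 4 dpa (187852 to 238337). Most of the macrophage sum is cd74a, and most of the neutrophil sum is MMP9.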

How the data were processed

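RNA-seq was made from pooled caudal fin clips; per the labels' protocols, cDNA from total RNA was tagged with Tn5 and sequenced as paired ends. The submitters' processing notes name Trim Galore 0.6.7, cutadapt 3.5 (trimming), STAR 2.7.10 (alignment) and danRer11; no annotation or strand setting is named in them, so a gene and its antisense or overlapping neighbour are not separable. The deposited table holds the authors' signal, read counts divided by a size factor. All values (100%) came out as whole reads within 0.001, with factors of 0.401 to 2.56. Floors cover counting error only, since PCR reads are not independent molecules.

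Symbols came from a gene name table that matched 29201 IDs. Genes reaching a signal of 10 in 3 or more libraries were fitted as 6 group means with limma 3.58.1 (R 4.3.3, trend option, pseudocount 1, 12 residual degrees of freedom, two-sided). Log2 changes are on the log2(signal + 1) scale, which understates those of low genes. As alternatives, edgeR 4.0.16 and DESeq2 1.42.0 were run on the whole reads; edgeR called 31, 1 and 4 of all genes between genotypes at 0, 1 and 4 dpa. Other alternatives were pseudocounts of 0.5 and 5, other filters, 2 other scalings, the abundant genes' share as a covariate, a replicate block and leaving out libraries. The fitting step was checked on simulated counts. Their spread was set from each gene's mean, and they held no uneven share of abundant genes. That check therefore does not bear on the scaling. The osteoclast genes and all lists were chosen with earlier results of these data known. Up to 4 called genes per list and comparison with the largest changes were eligible to be named; NFATC1, MPEG1 and the genes at 0 were added after their values were seen.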

Additional observations from a re-analysis of the deposited data

How the results depend on the processing

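Of 12 called changes of osteoclast genes, 9 held under all alternatives; without the 4 of ocstamp, whose filter passage required a difference, 5 of 8 held. The other 3 (ctsk in KO at 4 against 0 dpa and acp5a at 1 against 0 dpa in each genotype) kept their direction but lost the call where stated above. None of the 56 tests of genotype or its interaction with time was called in any alternative. The number of members called, which was 3 in KO and 3 in WT at 1 against 0 dpa, 3 in KO and 2 in WT at 4 against 0 dpa and 1 in KO and 0 in WT at 4 against 1 dpa, moved in some settings. With the share of the 5 top genes as covariate these became 5, 5, 4, 4, 2 and 1, with tnfrsf11a called lower at 1 against 0 dpa in both genotypes. With the total outside the 5 top genes as scale, 7 members were called in KO and 7 in WT at 4 against 0 dpa and 2 in KO at 4 against 1 dpa. Without the 4 low-share libraries, 2 members were called, both higher, in KO and 3 in WT at 4 against 1 dpa, of which acp5a and TCIRG1 copy A were lower and tnfrsf11a was higher. With only the groups compared 2 were called in WT, acp5a lower and tnfrsf11a higher. Leaving out single libraries gave 1 to 2 members in KO at 4 against 1 dpa. The share of all tested genes called higher in each of these settings is not given here, so these counts are not read against all genes. With the total outside the 5 top genes as scale, acp5b in KO at 4 against 0 dpa turned from -0.07 to 0.82 (limma adjusted p = 0.0490), csf1a turned to 0.18 (WT, 1 dpa) and 0.00493 (WT, 4 dpa), csf1b to 0.066 (WT, 1 dpa) and JUNB to 0.011 (WT, 1 dpa); that scaling moves the median gene, as given above. With the share as covariate, csf1rb turned to -0.025 in WT at 4 against 0 dpa; the cause was not tested. Over all genes, 23, 1 and 8 were called between genotypes at 0, 1 and 4 dpa by limma and 96, 20 and 15 by DESeq2, and 12657 in WT at 4 against 0 dpa fell to 3502 with the covariate.

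Same-numbered libraries did not deviate together throughout: of 45 pairs, 12 had a correlation over 0.1 (range -0.61 to 0.74), and 8 of 18 libraries correlated best with their own number. At 0 dpa, however, the correlation of KO with WT was 0.74 for replicate 1 and 0.60 for replicate 2, against -0.22 for replicate 3. With the replicate block, 3, 3, 3, 2, 1 and 0 members were called over time and 0 between genotypes.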
